A study of Rattus norvegicus with 9 samples.

Results

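Myd88, Irak1, Irak2, Irak3, Irak4, Tollip and Traf6, the genes of the signalling complex that the interleukin-1 (IL-1) receptor assembles inside the cell, were followed in rat tongue tissue. The members were found by gene symbol, and the list was drawn up with earlier results of these data known. All 7 were on the array, out of 14217 genes with a probe set of single symbol, and they were measured by 13 of the 31042 probe sets tested. Whole-genome Affymetrix rat arrays were used, 9 in all and 3 per group, each hybridised with biotin-labelled RNA from tongue of male Sprague Dawley rats.

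The IL-1Ra group had 4-nitroquinoline oxide (4NQO), a carcinogen that damages DNA, in the drinking water at 0.002% together with IL-1Ra, the natural antagonist of the IL-1 receptor. According to the study's methods, recombinant rat IL-1Ra was injected under the tongue mucosa once a week after a period of the carcinogen alone. The 4NQO group had the same carcinogen, with saline injections according to those methods, and the normal group drank distilled water. The sources differ on the time of sampling. The labels speak of rats killed between weeks 14 and 22 with visible tongue lesions, and the methods for the injected rats place the injections in those weeks and the killing at the end of the last of them. The sources used here do not give the lesion stage of each sampled tongue or the age of the animals. The labels do not say outright that the arrays of a group came from separate animals, so p-values measure only the spread between these samples. The series' design text names epithelia and fibroblasts, but every sample is labelled as tongue tissue, and the skeletal muscle genes Acta1 and Ckm averaged 13.44 and 13.38 log2 in the IL-1Ra group, 13.50 and 13.43 in the 4NQO group and 13.61 and 13.53 in the normal group. The basal keratinocyte gene Krt5 averaged 12.15, 12.41 and 11.59 log2 in the same 3 groups, so muscle and epithelium were both present.

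When IL-1 binds its receptor, the receptor's intracellular TIR domain recruits the adaptor MyD88, which gathers the kinase IRAK4 and through it IRAK1 and IRAK2. The kinases pass the signal to the ubiquitin ligase TRAF6, whose ubiquitin chains recruit the TAK1 and IKK kinases and so release NF-kB and the MAP kinases. IRAK-M, the product of Irak3, and Tollip restrain the same complex, and most Toll-like receptors use it too, so it serves both IL-1 and microbial signals in a mucosa. IL-1Ra acts outside the cell by occupying the receptor, and the values below are transcript levels, not the activity of the proteins.

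Promoters are printed for Myd88, Irak3 and Tollip, whose group mean was highest with IL-1Ra, and for Irak1, whose was not. Each runs 5′ to 3′ on the gene's strand from 250 bases before the annotated start to 50 bases after it, as RefSeq gives it on the GRCr8 assembly. Capitals mark matches to the motifs named after the sequences, which were chosen after the sequences and the results had been seen. The windows are chr8:127956181-127956480 for Myd88, chr7:57598582-57598881 for Irak3, chr1:206411939-206412238 for Tollip and chrX:156929776-156930075 for Irak1, all on the minus strand.
Myd88: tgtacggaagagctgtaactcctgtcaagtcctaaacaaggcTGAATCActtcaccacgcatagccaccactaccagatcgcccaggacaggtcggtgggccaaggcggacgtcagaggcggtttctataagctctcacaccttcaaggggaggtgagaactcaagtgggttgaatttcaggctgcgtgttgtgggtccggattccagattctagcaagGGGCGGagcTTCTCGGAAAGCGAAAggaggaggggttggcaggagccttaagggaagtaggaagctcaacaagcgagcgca
Irak3: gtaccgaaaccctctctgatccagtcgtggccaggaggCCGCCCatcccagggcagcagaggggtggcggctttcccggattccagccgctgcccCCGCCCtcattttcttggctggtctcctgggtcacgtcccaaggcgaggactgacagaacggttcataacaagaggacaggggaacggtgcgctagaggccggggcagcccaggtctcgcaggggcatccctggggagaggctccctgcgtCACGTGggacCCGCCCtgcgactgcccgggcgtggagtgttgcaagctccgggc
Tollip: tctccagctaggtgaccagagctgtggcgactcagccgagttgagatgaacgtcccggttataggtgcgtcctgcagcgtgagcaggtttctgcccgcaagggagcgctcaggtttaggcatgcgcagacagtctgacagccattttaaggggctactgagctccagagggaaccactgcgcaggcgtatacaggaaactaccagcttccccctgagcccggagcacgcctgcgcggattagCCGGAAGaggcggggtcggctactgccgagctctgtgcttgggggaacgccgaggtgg
Irak1: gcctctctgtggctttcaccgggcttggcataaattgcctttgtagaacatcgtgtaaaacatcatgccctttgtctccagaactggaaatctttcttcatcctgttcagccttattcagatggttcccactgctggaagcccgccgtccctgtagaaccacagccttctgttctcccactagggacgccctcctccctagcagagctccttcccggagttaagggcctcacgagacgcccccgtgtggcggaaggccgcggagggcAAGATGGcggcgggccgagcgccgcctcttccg
Counted from 1 at the left end, the Myd88 window held a GC box (GGGCGG) at bases 220 to 225. The letters TGAATCA at 43 to 49 matched the AP-1 pattern searched (TGANTCA), which leaves its middle base open. It also held a STAT motif (TTCNNNGAA) at 229 to 237, overlapping an interferon-stimulated response element (GAAANNGAAA) at 235 to 244. The Irak3 window held an E-box (CACGTG) at 247 to 252 and 3 GC boxes, the Tollip window an ETS motif (CCGGAAG) at 243 to 249, and the Irak1 window the core of the YY1 motif (AAGATGG) at 268 to 274. Both strands were searched in all 33469 promoters of the table. The interferon-stimulated response element was found in 3.92% of them, the STAT motif in 8.87%, AP-1 in 7.33%, the E-box in 6.42%, the GC box in 33.1%, ETS in 8.75% and the YY1 core in 7.01%. The NF-kB motif searched (GGGNNTTNCC), present in 5.0% of promoters, had no match in the members' windows. A match says only that the letters are there. Irak4 also had an entry, with a GC box and an ETS motif, and is not printed. Irak2 and Traf6, whose group means were also highest with IL-1Ra, are named only.

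Values are log2 of the deposited intensity, and differences between groups were tested with limma on all 9 arrays, with p-values adjusted over all 31042 probe sets. A gene was called when the adjusted p of its brightest probe set was below 0.05. IL-1Ra against 4NQO asks what the antagonist did in carcinogen-exposed tongue. Myd88 was higher in the IL-1Ra group, and it was the 1 member gene of 7 called there. At the level of probe sets 2 of 13 were called, both higher (Myd88 and 1 of 3 for Tollip), where 2.33% of all probe sets were called and 1.59% called higher. The 3 IL-1Ra arrays lay above all 3 4NQO arrays for 5 of the 7 genes and for 8 of 13 probe sets, and 8.92% of all probe sets had that order. The median difference of the 7 genes was 0.33 log2, against -0.02 log2 over all probe sets.

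4NQO against normal compares tongue exposed to the carcinogen and, according to the methods, to saline injections with tongue of rats that drank distilled water only, so carcinogen and injection cannot be told apart there. Irak1 was higher in the 4NQO group and was the 1 member gene called of 7, through 1 of the 13 probe sets, where 14.9% of all probe sets were called and 9.41% called higher. The 3 4NQO arrays lay above all normal arrays for 2 probe sets and below them for 2, against 20.6% and 17.6% of all probe sets. The median difference of the 7 genes was 0.10 log2, against 0.01 log2 over all probe sets. The shares called here were no larger than the background, and the list is described by its individual members below.

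IL-1Ra against normal compares tongue given the carcinogen and, according to the methods, IL-1Ra injections with tongue of rats that drank distilled water only. Antagonist, carcinogen and injection cannot be told apart there. Myd88 was again the 1 gene of 7 called, and 3 of 13 probe sets were called, all higher (Myd88 and 2 for Tollip), against 1.87% of all probe sets called and 1.33% called higher. The IL-1Ra arrays lay above all normal arrays for 6 of the 7 genes and 9 of 13 probe sets, an order found for 19.4% of all probe sets. The median difference of the 7 genes was 0.44 log2, against -0.01 log2 over all. In none of the 3 comparisons was the median over all probe sets matched to the members' brightness. By mean level the brightest probe sets of the members ranked from percentile 23.4 (Irak4) to 91.8 (Myd88). The upper quartile of all probe sets averaged 7.21 log2 on IL-1Ra arrays, 7.25 on 4NQO arrays and 7.06 on normal arrays. The 3 comparisons share arrays, so they are not independent of each other. In the F test for any difference among the 3 groups, 4 of the 7 genes (Myd88, Irak1, Irak3 and Traf6) and 6 of 13 probe sets were called, against 12% of all probe sets.

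**Figure D1:**
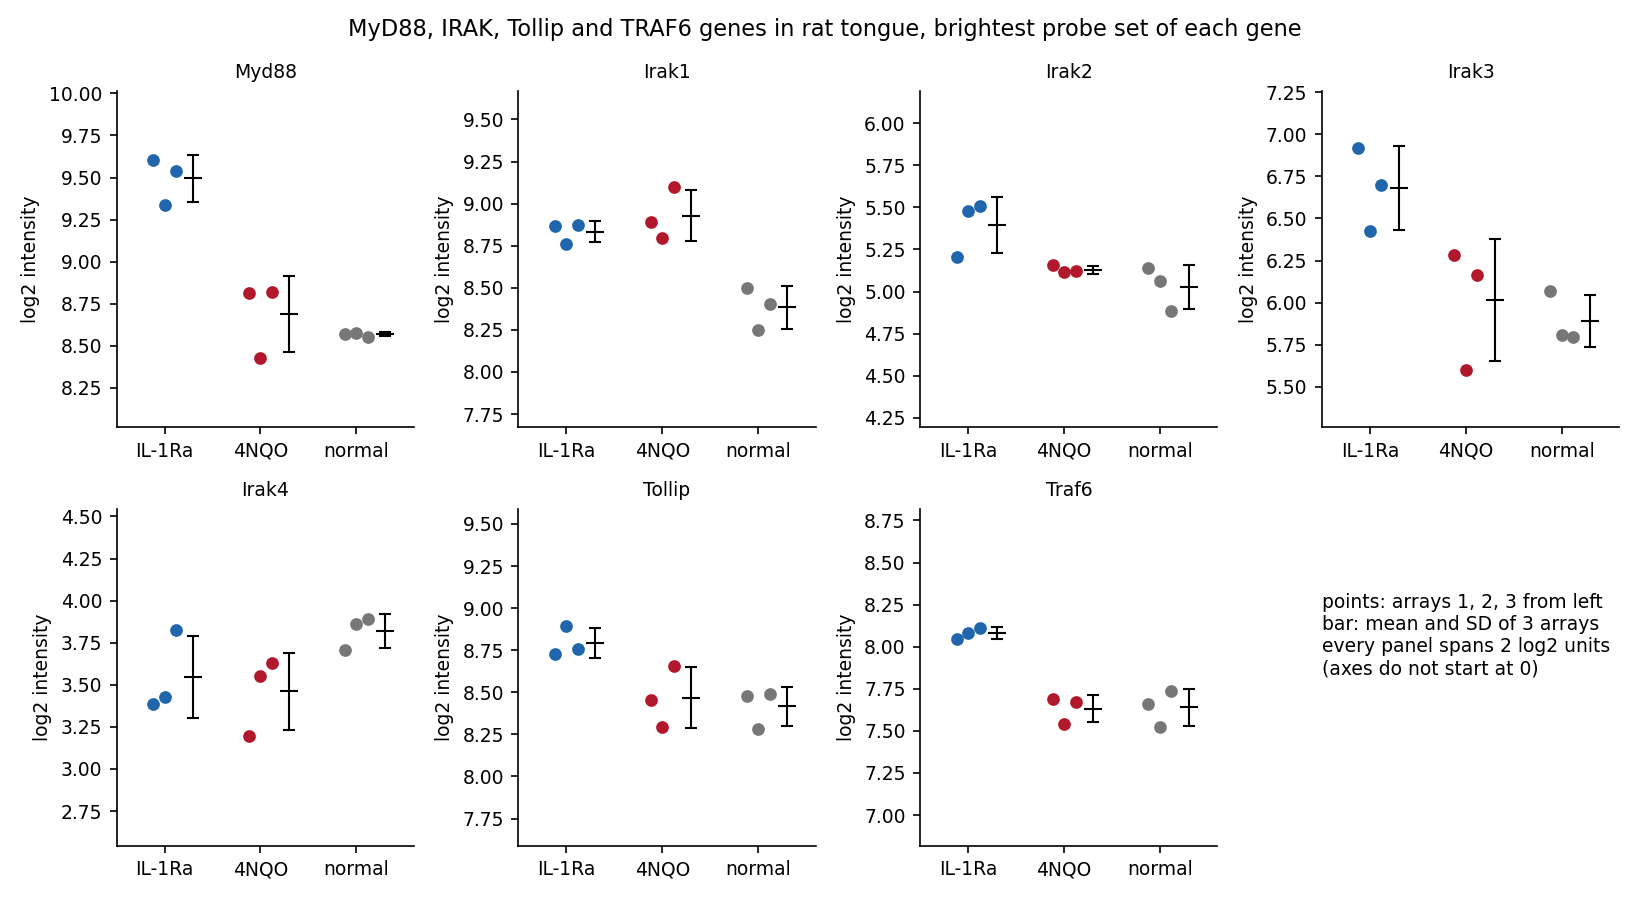
Log2 intensity (vertical axis) of the brightest probe set of each member gene on the 9 arrays. Points are arrays 1 to 3 of each group from left to right, and the bar beside them shows the group mean with its SD (n = 3). Every panel spans the same range of log2 units, with axes that do not start at 0. The IL-1Ra arrays stand above both other groups for Myd88, Irak2, Irak3, Tollip and Traf6, and the normal arrays stand below both other groups for Irak1.

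Myd88, the adaptor that couples the receptors to the kinases, was measured by 1 probe set, 1374468_at. Its level was 9.61, 9.34 and 9.54 log2 on the IL-1Ra arrays, 8.82, 8.43 and 8.82 on the 4NQO arrays, and 8.57, 8.58 and 8.55 on the normal arrays. Every IL-1Ra array was higher than every array of the other groups, which overlapped each other. The normal arrays were nearly identical (SD 0.01, n = 3), while the 4NQO arrays were spread (SD 0.23, n = 3). The mean of the IL-1Ra group exceeded that of the 4NQO group by 0.81 log2 (SE 0.13, 95% interval 0.52 to 1.10, limma adjusted p = 0.0155). It exceeded the normal mean by 0.93 log2 (SE 0.13, 95% interval 0.63 to 1.22, limma adjusted p = 0.0344). Between 4NQO and normal the difference was 0.12 log2, with an interval of -0.17 to 0.41 (limma adjusted p = 0.556). In order of level, 4NQO and normal were therefore neighbours that did not differ beyond their spread. In whole tissue, more cells that carry a transcript and more transcript per cell cannot be told apart.

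The Myd88 calls rested on few arrays. Against 4NQO, the limma adjusted p was 0.0646 without IL-1Ra array 1 and 0.0573 without IL-1Ra array 3, and 0.0746 when the 6 compared arrays were fitted alone. Against normal, it lay between 0.0802 and 0.162 without any 1 of the IL-1Ra or normal arrays. The size of the difference moved little, from 0.68 to 0.88 log2 against 4NQO and from 0.87 to 1.00 log2 against normal over the 9 fits that left out 1 array.

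Irak4, the kinase that MyD88 recruits directly, was dim. Probe set 1375624_at gave 3.38, 3.43 and 3.83 log2 on the IL-1Ra arrays, 3.20, 3.55 and 3.63 on the 4NQO arrays, and 3.71, 3.86 and 3.89 on the normal arrays. These values lay around the lower quartile of all probe sets on the same arrays (3.60 to 3.78 log2), where a probe set may report little of its transcript. All 4NQO arrays were below all normal arrays, and the difference was -0.36 log2 (95% interval -0.71 to -0.01, limma adjusted p = 0.139). The lower quartile of the arrays moved the same way, at 3.61 to 3.66 log2 on 4NQO arrays and 3.73 to 3.78 on normal arrays. IL-1Ra and 4NQO arrays overlapped (0.09 log2, limma adjusted p = 0.811).

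Irak1, which IRAK4 phosphorylates and which then binds TRAF6, showed another pattern. Its brighter probe set, 1373379_at, read 8.87, 8.76 and 8.87 log2 in the IL-1Ra group, 8.89, 8.80 and 9.10 in the 4NQO group, and 8.50, 8.25 and 8.41 in the normal group. Both carcinogen-exposed groups lay wholly above the normal arrays and overlapped each other. The 4NQO mean was 0.54 log2 above normal, or 1.46-fold (SE 0.12, 95% interval 0.29 to 0.80, limma adjusted p = 0.0172). The IL-1Ra mean was 0.45 log2 above normal, with an interval of 0.19 to 0.71 (limma adjusted p = 0.070). The IL-1Ra and 4NQO means differed by -0.09 log2, with an interval of -0.35 to 0.16 (limma adjusted p = 0.710), so a shift of either sign within that interval could not be told from none.

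The Irak1 difference depended on the normal arrays and on the scaling. The limma adjusted p between 4NQO and normal was 0.0687 without normal array 2 and 0.0662 without normal array 3. After quantile normalization the difference was 0.40 log2 (limma adjusted p = 0.0593), and after cyclic loess 0.35 log2 (limma adjusted p = 0.0914). The dimmer Irak1 probe set, 1394991_at, read 4.70, 4.67 and 4.69 log2 in the IL-1Ra group, 4.99, 4.58 and 5.003 in the 4NQO group, and 4.64, 4.63 and 4.73 in the normal group. There 4NQO arrays 1 and 3 were high and 4NQO array 2 was the lowest of all, and the difference from normal was 0.19 log2 (limma adjusted p = 0.305).

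Irak2, a relative of IRAK1 that sustains the signal, read 5.21, 5.48 and 5.51 log2 in the IL-1Ra group, 5.16, 5.11 and 5.12 in the 4NQO group, and 5.14, 5.06 and 4.88 in the normal group by probe set 1383474_at. The IL-1Ra arrays were the highest 3 of the 9, although IL-1Ra array 1 stood only just above 4NQO array 1. The difference from 4NQO was 0.27 log2 (95% interval 0.01 to 0.53, limma adjusted p = 0.253) and that from normal was 0.37 log2 (95% interval 0.11 to 0.63, limma adjusted p = 0.109). Neither passed the test.

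Of the inhibitors, Irak3 encodes IRAK-M, which in humans was described first in monocytes and macrophages and which holds IRAK1 in the receptor complex. Probe set 1380336_at gave 6.92, 6.43 and 6.70 log2 on the IL-1Ra arrays, 6.28, 5.60 and 6.17 on the 4NQO arrays, and 6.07, 5.81 and 5.80 on the normal arrays. The IL-1Ra arrays were again the 3 highest, and 4NQO array 2 was the lowest of all 9. The IL-1Ra mean lay 0.67 log2 above 4NQO, or 1.59-fold (SE 0.19, 95% interval 0.24 to 1.09, limma adjusted p = 0.103). It lay 0.79 log2 above normal (SE 0.19, 95% interval 0.36 to 1.22, limma adjusted p = 0.0629). Irak3 thus passed the F test for any difference (limma adjusted p = 0.0432) but neither pairwise test. Without 4NQO array 2 the difference between IL-1Ra and 4NQO was 0.46 log2 (limma adjusted p = 0.228), and that between IL-1Ra and normal, unchanged in size, had a limma adjusted p of 0.0282. Without 4NQO array 3 the adjusted p against normal was 0.0457.

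Tollip, an adaptor that binds the receptor complex and IRAK1 and restrains them, was measured by 3 probe sets that differed in size of response. The brightest, 1399052_at, read 8.73, 8.89 and 8.76 log2 in the IL-1Ra group, 8.45, 8.29 and 8.66 in the 4NQO group, and 8.48, 8.28 and 8.49 in the normal group. The IL-1Ra arrays were the highest 3, but the margin over 4NQO array 3 was small, and the difference from 4NQO was 0.33 log2 (95% interval 0.05 to 0.60, limma adjusted p = 0.187). Probe set 1378572_at read 7.06, 7.16 and 6.92 log2 in the IL-1Ra group, 6.03, 5.28 and 6.18 in the 4NQO group, and 5.90, 5.69 and 6.13 in the normal group. Here the IL-1Ra arrays stood clear of all the others, and the other groups overlapped. The difference was 1.22 log2 from 4NQO, or 2.32-fold (SE 0.22, 95% interval 0.73 to 1.70, limma adjusted p = 0.0221), and 1.14 log2 from normal (SE 0.22, 95% interval 0.66 to 1.62, limma adjusted p = 0.0440).

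The dimmest Tollip probe set, 1380808_at, read 5.52, 5.64 and 5.40 log2 in the IL-1Ra group, 4.80, 4.44 and 5.40 in the 4NQO group, and 4.57, 4.12 and 4.54 in the normal group. 4NQO array 3 reached the IL-1Ra arrays, and the difference from 4NQO was 0.63 log2 (limma adjusted p = 0.162), while that from normal was 1.11 log2 (SE 0.22, limma adjusted p = 0.0448). Thus all 3 probe sets had their highest group mean in the IL-1Ra group, and they disagreed on whether Tollip passed. The call of 1378572_at against 4NQO ended without IL-1Ra array 1, 2 or 3 (limma adjusted p = 0.0773, 0.0962 and 0.0584). Its call against normal ended without each normal or IL-1Ra array or 4NQO array 1 (limma adjusted p from 0.0509 to 0.171), and that of 1380808_at ended without the same 7 arrays (0.0559 to 0.171). Both calls against normal also ended after quantile normalization (limma adjusted p = 0.0556 and 0.0518) and cyclic loess (0.066 and 0.0605), and that of 1378572_at against 4NQO ended with the 6 compared arrays alone (0.0718). The table that names the probe sets does not say which exons or transcript ends they detect.

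Traf6, the ubiquitin ligase that carries the signal on from the kinases, had 4 probe sets. The brightest, 1383778_at, read 8.05, 8.08 and 8.11 log2 in the IL-1Ra group, 7.69, 7.54 and 7.67 in the 4NQO group, and 7.66, 7.52 and 7.74 in the normal group. The IL-1Ra arrays were tightly grouped (SD 0.03, n = 3) above all others, and 4NQO and normal arrays were interleaved. The differences from 4NQO and from normal were nearly equal, at 0.45 log2 (SE 0.10, 95% interval 0.22 to 0.68, limma adjusted p = 0.0526) and 0.44 log2 (SE 0.10, 95% interval 0.22 to 0.67, limma adjusted p = 0.0587). Neither passed the threshold. With 1 array left out, the limma adjusted p ranged from 0.0379 to 0.159 against 4NQO, with 1 of 9 fits passing, and from 0.0371 to 0.213 against normal, with 2 of 9 passing. Against 4NQO the limma adjusted p was 0.0300 after quantile normalization, 0.0276 after cyclic loess, 0.0397 with the dimmest probe sets left out, and 0.160 with the 6 compared arrays alone. Against normal it was 0.127 after quantile normalization, 0.151 after cyclic loess, 0.0458 with the dimmest probe sets left out and 0.0335 with the 6 compared arrays alone. The single arrays whose omission let Traf6 pass were 4NQO array 3 against 4NQO, and 4NQO array 2 or 3 against normal.

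The other 3 Traf6 probe sets did not pass in any comparison. Probe set 1384582_at differed by 0.58 log2 between IL-1Ra and 4NQO, 1393809_at by 0.45 log2 and 1392660_at by 0.17 log2 (limma adjusted p = 0.150, 0.318 and 0.470). Between 4NQO and normal the same probe sets differed by -0.37, -0.31 and 0.20 log2, so for Traf6 the sign of the difference between 4NQO and normal varied with the probe set while that of IL-1Ra against 4NQO did not.

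**Figure D2:**
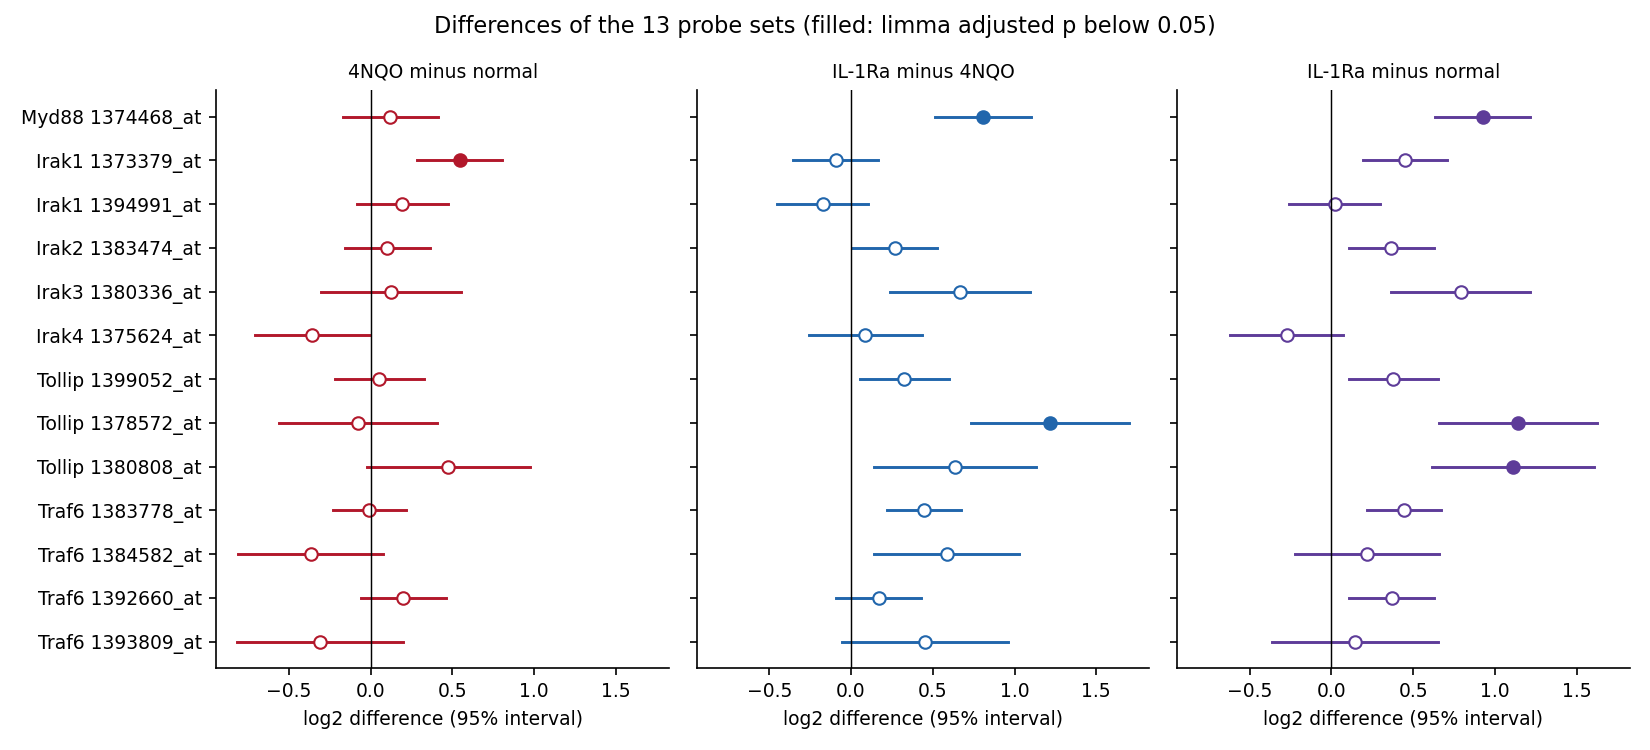
Log2 differences (horizontal axis) of the 13 member probe sets, listed by gene, with limma 95% intervals, for 4NQO minus normal, IL-1Ra minus 4NQO and IL-1Ra minus normal. Filled points had a limma adjusted p below 0.05: Irak1 at 0.54 in the left panel, Myd88 at 0.81 and Tollip 1378572_at at 1.22 in the middle, and Myd88 and 2 Tollip probe sets on the right.

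**Figure D3:**
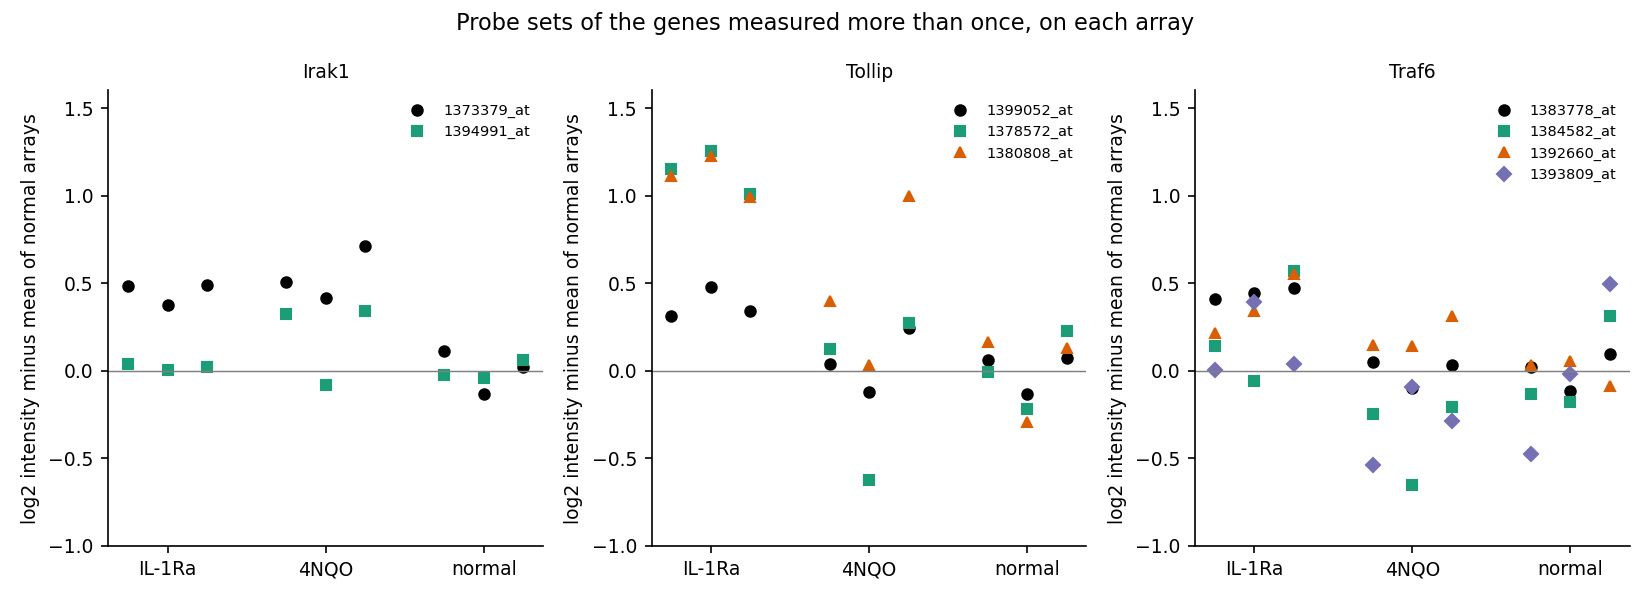
Log2 intensity of every probe set of Irak1, Tollip and Traf6 on each array, minus that probe set's mean over the normal arrays (vertical axis), with arrays 1 to 3 of each group from left to right. For Tollip, the probe sets 1378572_at and 1380808_at stand about 1 log2 unit above normal on the IL-1Ra arrays and 1399052_at much less, and 4NQO array 2 is the lowest point of 1378572_at.

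Several members varied together from array to array. Over the 9 arrays the Pearson correlation of Myd88 was 0.953 with Irak3, 0.942 with Traf6, 0.854 with Tollip and 0.767 with Irak2. It was 0.475 with Irak1 and -0.286 with Irak4. These are descriptions over arrays that share 3 groups, tissue makeup and scaling. Among 10974 genes outside the dimmest 40% of probe sets, the gene whose pattern was most like that of Irak3 was Myd88 itself, followed by Ubl7 (0.945) and Efhd2 (0.943). The genes most like Myd88 were Csnk2a2 (0.975), Golt1b (0.973) and Ddost (0.956). For Traf6 they were Nifk (0.984), Tmbim6 (0.969) and Fnip2 (0.965), and for Irak1 they were Cmtr1 (0.994), Pitpnb (0.990) and Dact2 (0.987).

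The carcinogen-exposed arrays without antagonist were uneven, and 4NQO array 2 stood apart for some members as well as for some cell type genes. It had the lowest Myd88 and Irak3 values of the 9 arrays, and also the lowest summed level of 7 macrophage genes. That sum was 11.48, 11.48 and 12.04 log2 on the IL-1Ra arrays, 11.62, 10.10 and 10.84 on the 4NQO arrays, and 11.35, 11.79 and 11.04 on the normal arrays. The groups overlapped. All 7 macrophage genes had higher means in the IL-1Ra group than in the 4NQO group, but 0 of 7 were called by limma. An unadjusted limma p below 0.05 was found for 2 of 7, against 19% of all probe sets. The part of these genes in the members' differences was not tested. Without 4NQO array 2, Myd88 differed by 0.68 log2 between IL-1Ra and 4NQO (limma adjusted p = 0.0275) and Tollip 1378572_at by 0.94 log2 (limma adjusted p = 0.0208). Leaving out 1 array does not test the part of the macrophage genes.

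Other cell type lists also moved with the groups. The summed level of 7 differentiated keratinocyte genes was 15.37 to 15.41 log2 on IL-1Ra arrays, 14.10 to 15.08 on 4NQO arrays and 15.13 to 15.24 on normal arrays, so the IL-1Ra arrays stood above the others here as they did for Myd88. In this list 1 of 7 genes was called higher in IL-1Ra than in 4NQO, where 2.33% of all probe sets were called, and 2 of 7 were called lower in 4NQO than in normal, where 14.9% were. For 6 basal keratinocyte genes the sum was 13.88 to 14.25 log2 in the IL-1Ra group, 13.77 to 14.70 in the 4NQO group and 12.87 to 13.69 in the normal group, with 3 of 6 called higher in 4NQO than in normal. As for Irak1, the normal arrays were the lowest. For 6 fibroblast genes it was 13.59 to 13.94 log2 with IL-1Ra, 12.12 to 13.68 with 4NQO and 14.15 to 14.36 in normal tongue, with 5 of 6 called lower in 4NQO than in normal. For 8 skeletal muscle genes it was 15.78 to 15.94 log2 with IL-1Ra and 15.84 to 16.14 with 4NQO. In normal tongue the muscle sum was 15.98 to 16.13 log2, above every IL-1Ra array. Limma called 0 of the 8 muscle genes in each comparison. Between IL-1Ra and 4NQO, 6 of 7 differentiated and 2 of 6 basal keratinocyte genes had an unadjusted limma p below 0.05. So did 4 of 6 fibroblast and 1 of 8 muscle genes, against 19% of all probe sets.

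For 5 endothelial genes the sum was 9.97 to 10.40 log2 in the IL-1Ra group, 10.40 to 10.75 in the 4NQO group and 10.02 to 10.11 in the normal group, with 3 of 5 called higher in 4NQO than in normal, where 14.9% of all probe sets were called. For 4 B and plasma cell genes it was 5.94 to 6.36 log2 with IL-1Ra, 5.90 to 5.99 with 4NQO and 6.39 to 6.69 in normal tongue, with 3 of 4 called lower in 4NQO than in normal. The sum of 5 neutrophil genes was 7.36 to 8.24 log2 in the IL-1Ra group, 7.46 to 9.48 in the 4NQO group and 7.33 to 7.42 in the normal group, and 4NQO array 1 was the highest. Of these 5 genes 1 was called higher in IL-1Ra than in 4NQO, where 2.33% of all probe sets were called, and 1 lower in 4NQO than in normal. For 8 T and NK cell genes the sum was 7.52 to 7.88 log2 with IL-1Ra, 7.07 to 7.53 with 4NQO and 7.31 to 7.44 in normal tongue. Of these 8 genes 1 was called lower in 4NQO than in normal, against 14.9% of all probe sets called in either direction. Between IL-1Ra and 4NQO, 5 of 5 endothelial and 1 of 4 B and plasma cell genes had an unadjusted limma p below 0.05. So did 1 of 5 neutrophil and 2 of 8 T and NK cell genes, against 19% of all probe sets. As a measure of RNA integrity, the beta-actin probe sets at the 3′ end exceeded those at the 5′ end by 0.98 to 1.27 log2 on IL-1Ra arrays, 1.07 to 1.29 on 4NQO arrays and 0.74 to 0.86 on normal arrays, which were the lowest as for Irak1. For hexokinase the excess was 1.80 to 2.20 log2 on IL-1Ra arrays, 1.29 to 1.78 on 4NQO arrays and 1.47 to 1.53 on normal arrays, and the IL-1Ra arrays were the highest as for Myd88. For GAPDH it was 0.256 to 0.276 log2 on IL-1Ra arrays, 0.306 to 0.427 on 4NQO arrays and 0.234 to 0.299 on normal arrays, with the 4NQO arrays highest. The part of the cell type lists and of RNA integrity in the members' differences was not tested, and a shared order of the groups does not decide it.

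**Figure D4:**
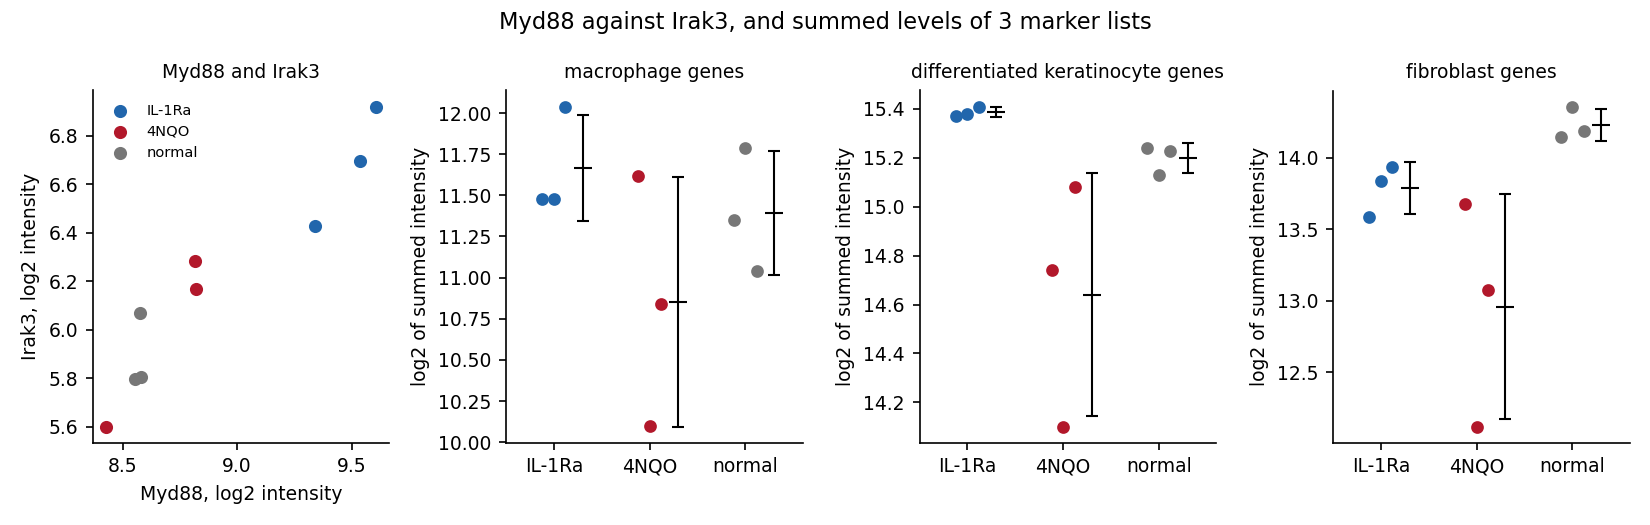
Left, log2 intensity of Irak3 against that of Myd88 on the 9 arrays, in which the 3 IL-1Ra arrays lie at the upper right and 4NQO array 2 at the lower left. Right, log2 of the summed intensity of the macrophage, differentiated keratinocyte and fibroblast genes by array, with each group's mean and SD (n = 3), where 4NQO array 2 has the lowest sum in all 3 lists.

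Around the complex, 84 genes were listed by their place in the pathway, of which 71 had a probe set of single symbol. Between IL-1Ra and 4NQO, 3 of 71 were called higher and 1 lower, with a median difference of 0.01 log2, where 2.33% of all probe sets were called and 1.59% called higher. Upstream, 2 of 7 ligand and receptor genes were called higher. Il1rn, which encodes IL-1Ra itself, averaged 7.57 ± 0.42 log2 in the IL-1Ra group and 5.81 ± 0.56 in the 4NQO group (SD, n = 3 each), and Il1r2, a decoy receptor without the signalling domain, 7.75 ± 0.18 and 6.49 ± 0.55. The array measures the tissue's Il1rn transcript, not the injected protein. Il1a, which encodes the ligand IL-1 alpha, averaged 6.08 ± 0.66 log2 in the IL-1Ra group and 4.68 ± 0.75 in the 4NQO group (limma adjusted p = 0.108). Its mean in the normal group was 5.98 log2, and the difference of 4NQO from normal was -1.29 log2 (limma adjusted p = 0.0608). Il1rap, the co-receptor needed for signalling, averaged 6.17 ± 0.20 log2 in the IL-1Ra group and 5.37 ± 0.66 in the 4NQO group (limma adjusted p = 0.145). The rest of this list moved little. Il1b, which encodes the ligand IL-1 beta, the signalling receptor gene Il1r1 and Sigirr differed by -0.15, -0.03 and 0.20 log2 (limma adjusted p = 0.879, 0.947 and 0.633). By limma 0 of 7 other receptors that use MyD88 and 0 of 3 other TIR adaptors passed, with 1 and 0 at an unadjusted p below 0.05.

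Downstream of TRAF6, Map3k8, the kinase TPL2 that feeds the ERK arm, averaged 5.72 ± 0.14 log2 in the IL-1Ra group and 4.65 ± 0.33 in the 4NQO group, a difference of 1.07 log2 (limma adjusted p = 0.0119). Map2k6, the kinase MKK6 that activates p38, went the other way, at 6.31 ± 0.25 and 7.17 ± 0.12 log2, a difference of -0.85 log2 (limma adjusted p = 0.0139). By limma 0 of 7 ubiquitin partners of TRAF6, 0 of 8 NF-kB subunits and inhibitors, 0 of 10 deubiquitinases and other brakes, and 0 of 12 NF-kB target genes passed in this comparison. At an unadjusted p below 0.05 the counts were 2, 3, 2 and 1, against 19% of all probe sets, and a test of each probe set without shared variance called 0 probe sets after Benjamini-Hochberg adjustment. The target genes had a median of -0.19 log2. The chemokine Cxcl1 averaged 4.07 ± 0.33 log2 in the IL-1Ra group and 5.24 ± 1.39 in the 4NQO group, Lcn2, an iron-binding protein of epithelia and neutrophils, 5.002 ± 0.29 and 6.27 ± 1.10, and Ptgs2, the cyclooxygenase COX-2, 3.001 ± 0.27 and 4.28 ± 1.58. All 3 had lower means in the IL-1Ra group and a spread between 4NQO arrays as wide as the difference or nearly so.

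The 4 pathway calls between IL-1Ra and 4NQO kept their direction but not their adjusted p when arrays were left out. Without IL-1Ra array 2 all 4 ended, and without IL-1Ra array 1 or 3, 3 ended (limma adjusted p up to 0.0969). 4NQO array 1 ended 2, 4NQO array 2 ended 1 and normal array 3 ended 1 (limma adjusted p up to 0.0698). With the 6 compared arrays alone all 4 ended, at a limma adjusted p of 0.0528 for Map3k8, 0.0565 for Il1rn, 0.0671 for Map2k6 and 0.0931 for Il1r2.

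Between 4NQO and normal, 10 of 71 pathway genes were called higher and 3 lower, with a median of 0.14 log2, where 14.9% of all probe sets were called and 9.41% called higher. The share of pathway genes called was thus close to that of all probe sets. Of the 8 NF-kB subunits and inhibitors 3 were called higher and 0 lower. Nfkbia, the inhibitor IkB-alpha, averaged 9.36 ± 0.26 log2 in the 4NQO group and 8.48 ± 0.22 in the normal group, Nfkb2, the p100 precursor, 6.57 ± 0.33 and 5.69 ± 0.18, and Nfkbiz, a nuclear IkB protein, 7.08 ± 0.45 and 6.20 ± 0.30 (limma adjusted p = 0.0140, 0.0133 and 0.0334). The deubiquitinases Usp2 and Cyld were higher by 1.01 and 0.51 log2, the kinases Map2k6, Mapk14 and Ikbkb by 0.90, 0.48 and 0.46 log2, and the target genes Lcn2 and Icam1 by 1.70 and 1.15 log2. Map3k8, Sarm1, a TIR adaptor that counters other adaptors, and Nos2 were lower by 0.70, 0.56 and 0.47 log2.

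Only Icam1 and Map2k6 of these 13 genes stayed called in every fit that left out 1 array. Normal arrays 1, 2 and 3 ended 8, 10 and 9 of the calls, 4NQO arrays 1, 2 and 3 ended 6, 1 and 5, and IL-1Ra arrays 1 and 2 ended 1 each, with limma adjusted p up to 0.144. With the 6 compared arrays alone Ikbkb, Nfkbiz, Cyld and Lcn2 no longer passed (limma adjusted p from 0.0553 to 0.0616). Between IL-1Ra and normal, 3 of 71 genes were called, all higher, where 1.87% of all probe sets were called and 1.33% called higher. They were Ikbkb by 0.69, Mapk14 by 0.59 and Icam1 by 0.88 log2 (limma adjusted p = 0.0440, 0.0442 and 0.0498). Each of these 3 calls ended without any 1 normal or IL-1Ra array and without 4NQO array 1 (limma adjusted p from 0.0508 to 0.173). After quantile normalization or cyclic loess none of the 3 passed (limma adjusted p from 0.0612 to 0.0862), and Mapk14, Ikbkb and Nfkbiz no longer passed between 4NQO and normal (0.0711 to 0.172).

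**Figure D5:**
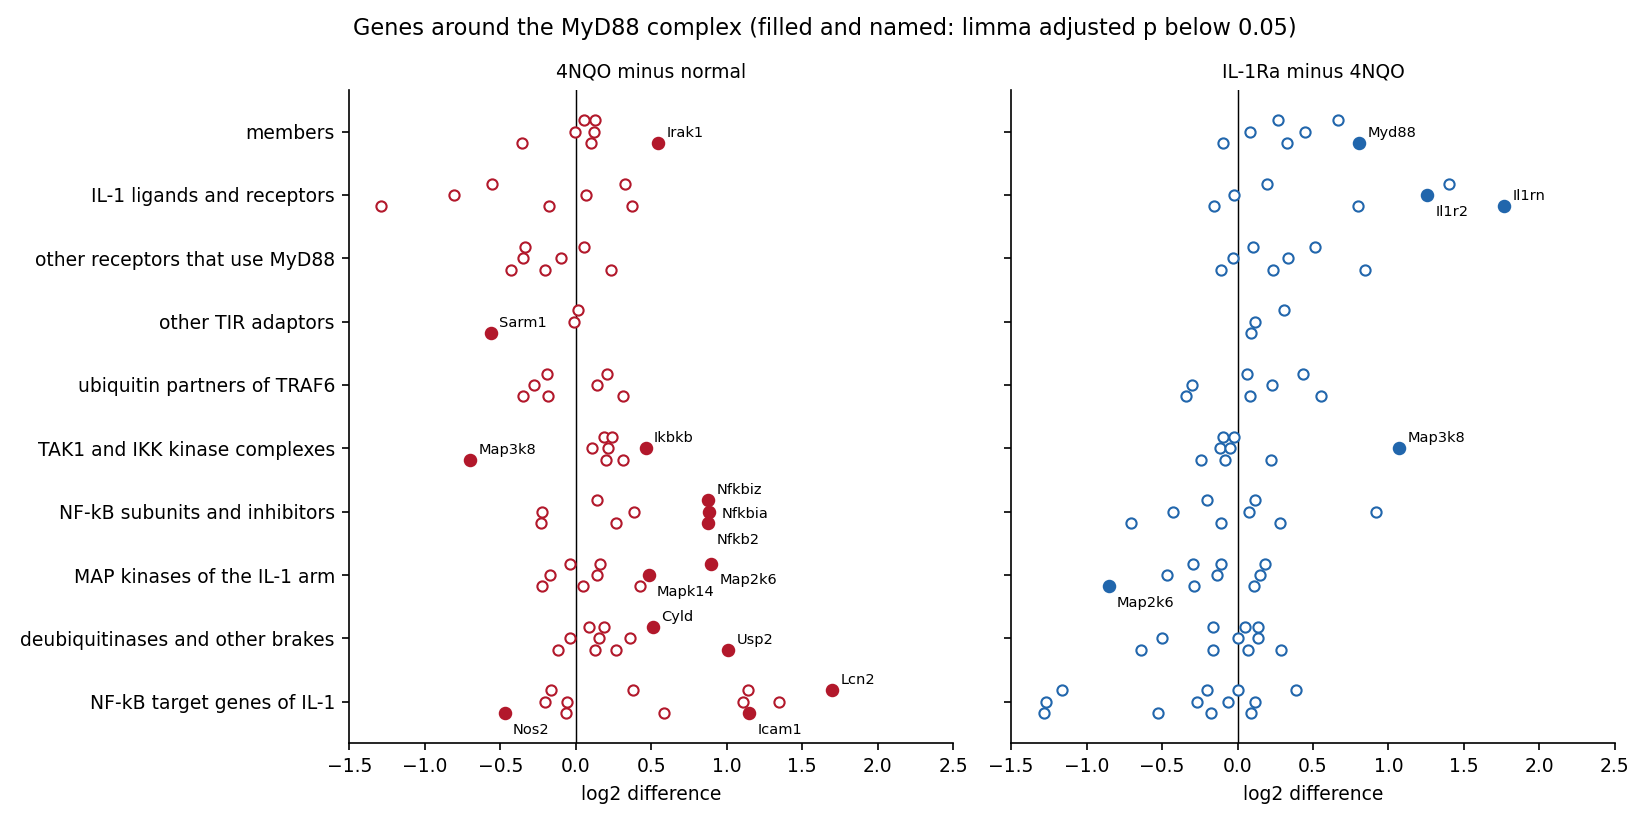
Log2 differences (horizontal axis) of the members and of 9 lists of genes around them, for 4NQO minus normal and IL-1Ra minus 4NQO, 1 point per gene at its brightest probe set. Filled, named points had a limma adjusted p below 0.05, 14 genes on the left with Irak1 among them and 5 on the right with Myd88 among them.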

How the data were processed

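Total RNA of 9 rat tongue samples, 3 per treatment group as GEO's labels assign them, was hybridised to Affymetrix rat arrays. Affymetrix Expression Console and RMA are named in the submitters' processing notes, with no version in the sources used here. RMA corrects background, is meant to scale arrays alike and summarises probes, and can hide a change that most genes share. The deposited values were not fully alike in scale. Normal tongue had the highest mean lower quartile (3.76 log2, against 3.65 for IL-1Ra and 3.63 for 4NQO). Its mean upper quartile was the lowest (7.06 log2, against 7.21 and 7.25), so its values spanned a narrower range. The reason was not tested. The authors deposited 1 linear intensity per probe set and array, and log2 was taken here. Control probe sets (57) were left out, no dim filter was applied, and the remaining 31042 were tested.

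Groups were compared with limma 3.58.1 (lmFit and eBayes, all 9 arrays, two-sided, Benjamini-Hochberg over all probe sets) in R 4.3.3, which was tested on simulated data. Summaries used Python 3.11.15 with pandas 2.3.3 and scipy 1.17.1, and figures matplotlib 3.10.9. Gene names came from the platform annotation, where 20826 probe sets had a single symbol, and the probe set with the highest mean represented a gene. No depth exists for arrays, and 3 per group limits the precision. No array pair had identical values.

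All members and all their probe sets are named, with up to 4 pathway genes of lowest adjusted p per list and comparison, and the 3 genes most correlated with Myd88 and with each member that passed the F test. For IL-1Ra against 4NQO the remaining ligand and receptor genes are named too. The members, lists and rules were chosen with earlier results of these data known. Alternatives covered scaling, dim probe sets, a pseudocount of 16, variance models, array weights, the probe set, the arrays fitted, each array left out, and the t-test of the study's methods. Promoters (5 of 7 members matched by symbol) came from RefSeq on GRCr8.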

Additional observations from a re-analysis of the deposited data

How the results depend on the processing

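Over 456 recomputed member differences, 397 kept direction and side of the threshold, 26 passed newly, 18 no longer passed and 15 changed sign, all 15 in differences that had not passed. No paired analysis was possible because the labels give no replicate numbers shared between groups. With 3 arrays per group, each of the 3 member gene calls ended without at least 1 array. Over all probe sets the calls under the alternatives ran from 1 to 5463 between 4NQO and normal, 0 to 2353 between IL-1Ra and 4NQO and 0 to 3556 between IL-1Ra and normal. The cause was not tested.

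Between 4NQO and normal, 0 member genes were called after quantile normalization, cyclic loess or the t-test of the study's methods (adjusted, or at unadjusted p below 0.05 with 1.5-fold), and 0 to 1 with 1 array left out, the 0 without normal array 2 or 3. Between IL-1Ra and 4NQO, 2 were called with any probe set counted (Myd88 and Tollip), and 2 (Myd88 and Traf6) after quantile normalization, cyclic loess, leaving out dim probe sets, adding 16 to the intensity or testing 1 probe set per gene. The count was 0 with the 6 compared arrays alone and for the adjusted t-test, and 0 to 2 with 1 array left out, the 0 without IL-1Ra array 1 or 3. Between IL-1Ra and normal, 2 were called with any probe set, without dim probe sets and by the t-test with 1.5-fold, 3 after adding 16, 4 with 6 arrays alone, 6 with array weights and 0 by the adjusted t-test, and 0 to 4 with 1 array left out, the 0 without any 1 IL-1Ra or normal array. The F test called 2 after quantile normalization or cyclic loess and 1 to 5 with 1 array left out.

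Signs turned for Myd88 (-0.0262 log2 after quantile normalization, -0.0660 after cyclic loess), Irak3 (-0.0161 after cyclic loess, -0.00775 to 0.333 with 1 array left out), Tollip (-0.0983 and -0.147 after the same scalings, -0.0765 by probe set 1378572_at, -0.0427 to 0.140 with 1 array left out) and Traf6 (0.200 by probe set 1392660_at, -0.0664 to 0.0406 with 1 array left out) between 4NQO and normal, and for Irak4 (-0.0550 to 0.171 with 1 array left out) between IL-1Ra and 4NQO. Over all probe sets, 63.4% of the 4610 calls between 4NQO and normal were higher, against 51.9% of 2821 after quantile normalization and 47.7% of 2480 after cyclic loess. For IL-1Ra against 4NQO the shares were 68.6% of 722, 76.1% of 703 and 79.9% of 732, and for IL-1Ra against normal 71.1% of 581, 46.3% of 203 and 35.1% of 97. Medians of all differences moved by less than 0.1 log2 under each scaling. The array medians already lay between 5.23 and 5.27 log2 before rescaling, so this says little about bright probe sets. The upper quartile averaged 7.06 log2 on normal arrays, 7.21 on IL-1Ra arrays and 7.25 on 4NQO arrays.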
